A study of Mus musculus with 44 samples.

Results

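The inner root sheath is the stiff tube of keratinized cells that surrounds and moulds a growing hair. Its keratins and its matrix protein were followed here as 9 listed genes: the type I keratins Krt25, Krt26, Krt27 and Krt28, the type II keratins Krt71, Krt72, Krt73 and Krt74, and Tchh, which encodes trichohyalin. Of the 9 genes, 8 had values among the 43411 genes of the table, all 8 were among the 17037 genes with a mean normalized count above 3, and Tchh was not analysed here. The genes were chosen by name, but selected on earlier results from these same mice, in which Krt25 and Krt71 stood among the lowest after 2 weeks of bleomycin. Their levels, fold changes and calls are therefore given as a description, with no p-value, and the calls are not independent evidence for these genes.

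Back skin was taken from 44 female C57Bl/6 mice labelled WT, all of them 8 weeks old when injections began. Bleomycin, an antibiotic that damages DNA and is used to make skin fibrotic, was injected under the back skin each day in 100 µL at 1 U/mL. A supplementary figure legend of the study gives a lower concentration. The 5 groups were saline (n = 10), bleomycin for 2 weeks (n = 10), bleomycin for 4 weeks (n = 10), and 6 weeks (n = 6) or 10 weeks (n = 8) of recovery after 4 weeks of bleomycin. The age of the saline mice at harvest is not given in the sources used here. Among the other groups, those taken later were older at harvest. Age therefore cannot be told apart from treatment or recovery in any of the comparisons. One part of each biopsy was used for RNA and the other for histology, and each library is bulk skin, in which fewer inner root sheath cells and less RNA per cell cannot be told apart.

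Keratins are built as pairs of 1 type I and 1 type II chain, which assemble into filaments. In the inner root sheath, trichohyalin granules harden around these filaments once peptidylarginine deiminases have modified the protein and transglutaminases have crosslinked it. The sheath has 3 concentric layers, Henle's layer, Huxley's layer and the cuticle, and in human follicles KRT25, KRT27, KRT28 and KRT71 are found in all of them, KRT26, KRT72 and KRT73 in the cuticle and KRT74 in Huxley's layer. The sheath is made only while a follicle grows, and follicles of mouse back skin pass through phases of growth, regression and rest.

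The 8 genes lie in the 2 keratin clusters of the mouse genome (GRCm38, GENCODE vM21 annotation), all on the minus strand. The type I genes lie side by side on chromosome 11: Krt25 at chr11:99315516-99322951, Krt26 at chr11:99328550-99337966, Krt27 at chr11:99345565-99351104 and Krt28 at chr11:99364872-99374903. The type II genes lie on chromosome 15: Krt71 at chr15:101733949-101743109, Krt74 at chr15:101754259-101763504, Krt72 at chr15:101776172-101786460 and Krt73 at chr15:101793308-101802346. No member overlaps another annotated gene, and the annotation lists Krt74 as a transcribed unitary pseudogene, not as a protein-coding gene.

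The promoters are shown as a description, and their part in the levels of the members was not tested. The letters are the 60 bases before the RefSeq start of each analysed keratin gene in the promoter table (GRCm38.p6), 5′ to 3′ on the gene's own strand, with TATAAA in capitals.
Krt25 (chr11:99322952-99323011): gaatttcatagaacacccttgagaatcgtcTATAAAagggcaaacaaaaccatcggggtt
Krt26 (chr11:99337966-99338025): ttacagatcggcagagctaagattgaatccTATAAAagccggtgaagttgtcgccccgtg
Krt27 (chr11:99351119-99351178): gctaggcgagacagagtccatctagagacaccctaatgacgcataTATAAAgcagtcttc
Krt28 (chr11:99374904-99374963): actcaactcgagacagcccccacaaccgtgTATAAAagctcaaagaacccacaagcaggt
Krt71 (chr15:101743098-101743157): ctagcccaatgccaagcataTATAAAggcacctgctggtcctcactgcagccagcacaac
Krt72 (chr15:101786521-101786580): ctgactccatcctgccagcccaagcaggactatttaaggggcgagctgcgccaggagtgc
Krt73 (chr15:101802361-101802420): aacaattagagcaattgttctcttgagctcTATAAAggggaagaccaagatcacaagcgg

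TATAAA, the core of the TATA box, began 15 to 45 bases before the start on the gene's own strand in 6 of the 8 members with a promoter entry (Krt25, Krt26, Krt27, Krt28, Krt71 and Krt73). The same was true of 739 of all 32851 promoters (2.25%). In Krt25, Krt26, Krt28 and Krt73 it began at the same place, 30 bases before the start. These letters were not in that window of Krt72 or Tchh. Among the keratins shown, the RefSeq and GENCODE starts coincide only for Krt25 and Krt28, so these positions depend on the start used.

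The 250 bases before the start were also searched on both strands for AGATAA, letters bound by GATA factors, for TAATTA, letters bound by homeobox factors, and for CTTTGA, letters bound by LEF and TCF factors. AGATAA was in 5 of the 8 member promoters (Krt25, Krt27, Krt71, Krt73 and Tchh) and in 9.99% of all promoters. TAATTA was in 4 (Krt25, Krt28, Krt71 and Krt73) and in 4.84% of all promoters, and CTTTGA was in 2 (Krt28 and Tchh) and in 13.8%. The promoters of Krt25, Krt71 and Krt73 held the TATA, GATA and homeobox letters together, and are shown at full length with all of these letters in capitals. In Krt71 the TAATTA and the AGATAA overlap by 1 base.
Krt25 (chr11:99322952-99323201): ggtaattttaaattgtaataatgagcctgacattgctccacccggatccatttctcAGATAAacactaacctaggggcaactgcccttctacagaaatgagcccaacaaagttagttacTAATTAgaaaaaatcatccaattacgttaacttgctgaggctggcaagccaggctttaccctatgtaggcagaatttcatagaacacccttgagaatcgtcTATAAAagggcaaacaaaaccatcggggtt
Krt71 (chr15:101743098-101743347): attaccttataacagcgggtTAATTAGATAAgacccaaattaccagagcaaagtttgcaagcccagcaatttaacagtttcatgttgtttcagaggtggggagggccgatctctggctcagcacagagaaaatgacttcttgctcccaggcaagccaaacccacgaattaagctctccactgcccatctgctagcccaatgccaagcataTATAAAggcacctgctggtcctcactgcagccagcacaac
Krt73 (chr15:101802361-101802610): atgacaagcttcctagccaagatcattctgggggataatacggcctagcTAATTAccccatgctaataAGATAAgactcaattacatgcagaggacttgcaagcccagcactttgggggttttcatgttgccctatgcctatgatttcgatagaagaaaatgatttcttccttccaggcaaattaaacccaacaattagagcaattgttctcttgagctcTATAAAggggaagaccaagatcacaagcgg

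A mouse had 8509094 to 15285577 reads on genes (median 11310008), and the medians ran from 9523976 in the saline group to 12905996 after 10 weeks of recovery. The saline mouse numbered 1 had the highest value of its group in all 8 members, and with it and mouse 2 of the 2-week group left out (42 mice, an alternative taken from earlier work on these data) the number of members called was the same in all 7 comparisons. The epidermal keratin Krt10 was abundant in every group, with medians of 63238 normalized counts in saline and 52920 after 2 weeks of bleomycin.

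Normalized counts below are reads divided by 1 size factor per mouse, and levels are compared between genes only per kilobase of exon. In saline skin, Krt71 had the highest median level per kb (8442), followed by Krt25 (5040) and Krt27 (4356). Krt73 (931 per kb), Krt28 (806 per kb), Krt72 (448 per kb) and Krt26 (193 per kb) followed, and Krt74 was far below them (18.8 per kb). Within single saline mice, Krt71 was above Krt25 in 10 of 10 (1.15 to 1.97 times, per kb), Krt27 above Krt73 in 10 of 10 (1.96 to 10.01 times), Krt72 above Krt26 in 10 of 10 and Krt26 above Krt74 in 10 of 10. The order of Krt25 and Krt27 (0.721 to 1.61 times), of Krt73 and Krt28 (0.570 to 1.23 times) and of Krt28 and Krt72 (0.851 to 42.2 times) changed between mice, so these neighbours do not differ beyond their spread. Together the 8 genes took 0.0179% to 1.89% of a saline mouse's reads, with a median of 0.366%.

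Krt25, a type I keratin of all layers, ranged from 513 to 54378 normalized counts in saline mice with a median of 10024. After 2 weeks of bleomycin it ranged from 0 to 504 with a median of 2.27, and 8 of the 10 mice had at most 3 reads of it. After 4 weeks it ranged from 1.57 to 1233 with a median of 6.28. Nearly all bleomycin mice were thus close to 0, and the 2-week group lay entirely below the saline group, by a narrow margin set by mouse 8 (504) against the lowest saline mouse (513). After 6 weeks of recovery Krt25 ranged from 2.05 to 22567 with a median of 2423, and after 10 weeks from 289 to 32510 with a median of 18794. Both recovery groups overlapped the saline group, and 1 mouse of each lay below every saline mouse.

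Krt71, the main type II keratin of the sheath, ranged from 916 to 94352 normalized counts in saline mice with a median of 18455. It ranged from 3.96 to 711 (median 9.21) after 2 weeks of bleomycin and from 3.80 to 2181 (median 19.6) after 4 weeks. The same mice stood out as for Krt25: mouse 8 of the 2-week group, and mice 3, 8 and 9 of the 4-week group with 2181, 1139 and 146. Krt71 ranged from 14.4 to 44960 (median 4724) after 6 weeks of recovery and from 586 to 76407 (median 42428) after 10 weeks. As with Krt25, the low end was mouse 5 at 6 weeks and mice 4 (586) and 7 (1258) at 10 weeks.

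Krt27, also a type I keratin of all layers, ranged from 367 to 35542 normalized counts in saline mice with a median of 6752. Its median was 5.15 after 2 weeks of bleomycin (0.990 to 242) and 11.2 after 4 weeks (1.07 to 796). Its 2-week group also lay entirely below saline. Its median was 2359 after 6 weeks of recovery (9.23 to 20623) and 17890 after 10 weeks (245 to 37287), with both ranges across that of saline.

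Krt26, Krt72 and Krt73, whose human counterparts are cuticle keratins, were less abundant. Krt26 had a saline median of 709 normalized counts (13.3 to 4660), and 6 of the 10 2-week mice had no read of it (highest 20.7). Krt72 had a saline median of 894 (12.1 to 5845), and 7 of the 10 2-week mice had no read of it (highest 37.0). A count of 0 allows up to 3 reads in a mouse. For both genes, 9 of the 10 2-week mice lay below every saline mouse, and mouse 8 reached into the saline range, whose low end was saline mouse 6.

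After 4 weeks of bleomycin, Krt26 had a median of 1.64 (0 to 124) and Krt72 of 1.27 (0 to 169). Krt73 had medians of 2018 in saline (76.5 to 11691), 3.22 after 2 weeks (0 to 221) and 4.85 after 4 weeks (1.27 to 226). In recovery, the medians of Krt26 were 219 at 6 weeks and 2152 at 10 weeks, those of Krt72 were 498 and 3829, and those of Krt73 were 421 and 3651. For all 3 genes the recovery groups overlapped saline, and 2 mice at 10 weeks lay above every saline mouse in Krt26 and in Krt72, as in Krt27.

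Krt28 differed from the other keratins in how low it went. Its saline median was 1310 normalized counts (100.5 to 7748), and its medians were 21.0 after 2 weeks of bleomycin (17.2 to 148) and 20.2 after 4 weeks (11.4 to 158). No mouse of either group had 3 reads or fewer of it. In the 9 2-week mice other than mouse 8, Krt28 lay at 17.2 to 40.6 while Krt25 lay at 0 to 8.61. Of the summed medians per kb of the 8 genes, Krt28 made up 3.99% in saline, 56.0% after 2 weeks of bleomycin and 34.4% after 4 weeks. In the lowest recovery mouse, mouse 5 at 6 weeks, Krt28 was at 64.6 where Krt25 was at 2.05 and Krt26 at 0. Its medians were 508 after 6 weeks of recovery (64.6 to 4221) and 3742 after 10 weeks (81.7 to 7678).

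Krt74 was near the limit of detection. It ranged from 0 to 200.3 normalized counts in saline mice with a median of 31.0, and no mouse of the 2-week group had more than 1 read of it. The 4-week group had at most 4 reads. Its medians were 5.05 after 6 weeks of recovery (1.98 to 46.3) and 67.2 after 10 weeks (0 to 157). Both bleomycin groups overlapped saline only through saline mouse 6, which had no read of Krt74, and the next saline mouse, mouse 2, was at 4.57.

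**Figure D1:**
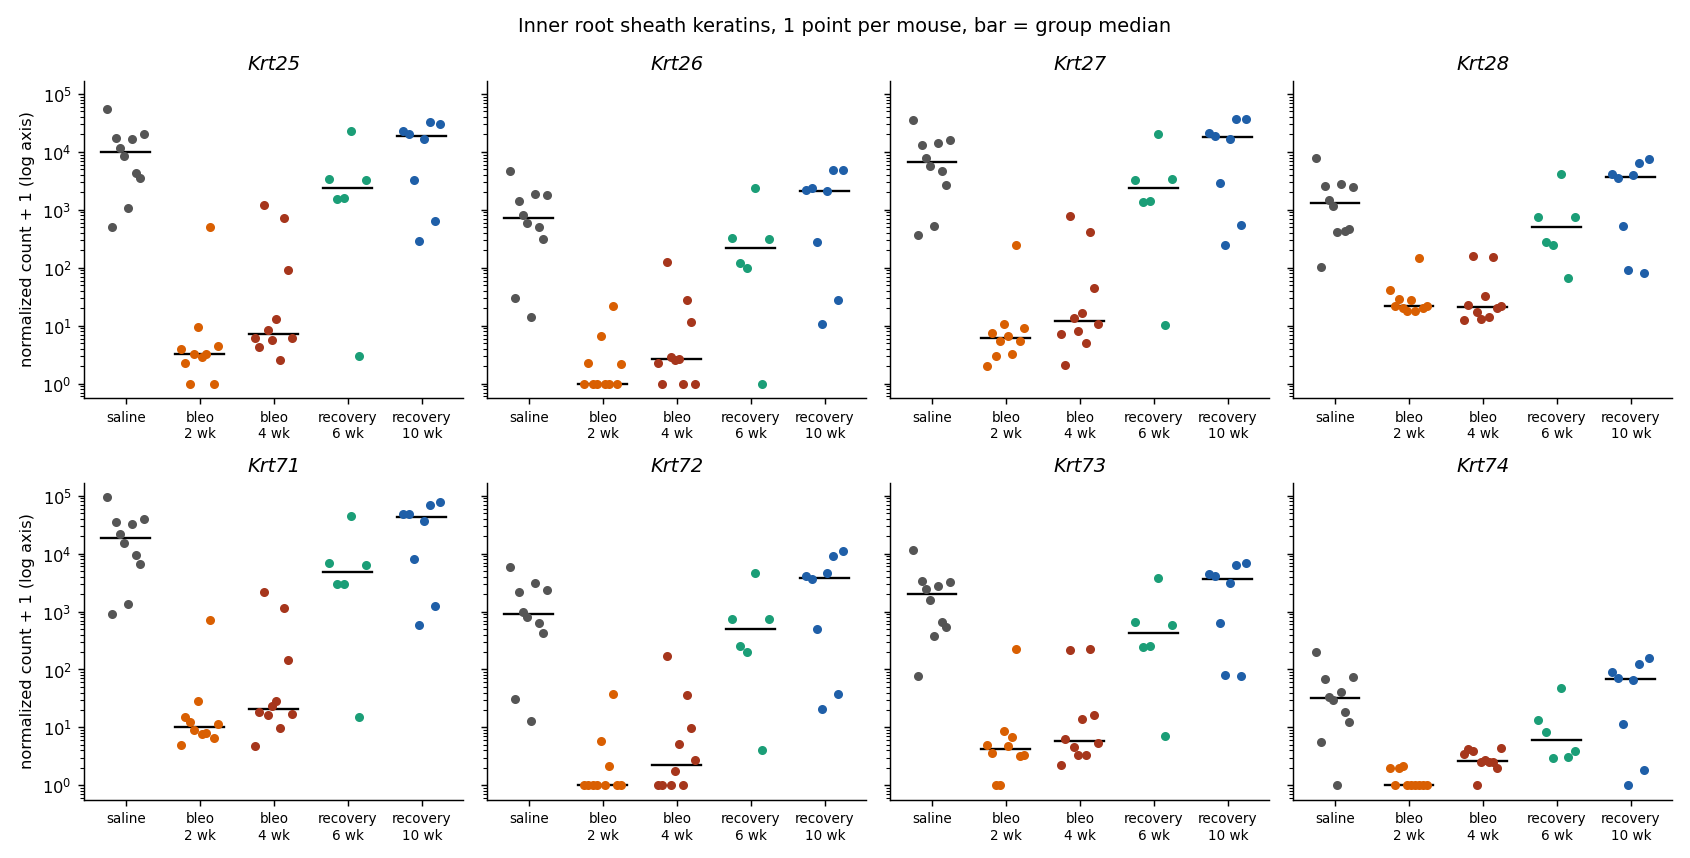
Normalized count plus 1 (log axis) of each of the 8 analysed inner root sheath keratins in each of the 44 mice, by group, with a bar at the group median. Krt25 had a saline median of 10024, which was 2.27 after 2 weeks of bleomycin and 18794 after 10 weeks of recovery, and Krt28 kept a floor of 11.4 or more in all bleomycin mice.

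Which genes differed between groups was asked with limma on log2(normalized count + 1), and a gene was called when its fold change exceeded 1.5 in either direction at a Benjamini-Hochberg adjusted p-value below 0.05. After 2 weeks of bleomycin all 8 members were called lower than in saline, where 7.43% of all genes tested were called lower and 9.3% higher. The log2 fold changes were -10.51 ± 1.25 (SE) for Krt25, -9.68 ± 1.15 for Krt71, -9.36 ± 1.11 for Krt27, -8.37 ± 1.19 for Krt72, -7.99 ± 1.03 for Krt73 and -7.97 ± 1.15 for Krt26. Krt28 (-5.25 ± 0.76) and Krt74 (-4.25 ± 0.74) had the smallest. The median of the 8 was -8.18, and that of all genes tested was 0.00. For 3 of the 8 members, Krt25, Krt27 and Krt71, the groups did not overlap, as for 1.33% of all genes in this direction. Because this comparison was used to choose the members, nothing is read from these counts.

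Leaving out mouse 8 of the 2-week group moved Krt25 to -11.26, Krt71 to -10.29 and Krt73 to -8.59, and leaving out saline mouse 6 moved Krt72 to -8.99, with all calls kept. The fold changes of Krt26, Krt72 and Krt74 depend on the pseudocount, since 6 or 7 of the 10 2-week mice had no read: with a pseudocount of 10, Krt72 was at -5.77 and Krt74 at -1.94, and with 0.1 they were at -10.79 and -6.43. Krt25 had at most 3 reads in 8 of the 10 2-week mice, so the size of its fold change is uncertain near the floor too. For Krt25, edgeR and DESeq2, which compare means and not mean logs, gave -8.004 and -8.03.

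After 4 weeks of bleomycin all 8 members were called lower than in saline, against 7.37% of all genes called lower and 10.5% higher. The log2 fold changes ran from -8.34 ± 1.25 for Krt25 to -3.11 ± 0.74 for Krt74, with a median of -7.02. These calls share the 10 saline mice with the 2-week comparison that chose the members, so nothing is read from them either. None of the 8 had groups that did not overlap (2.21% of all genes in this direction), and 8 of the 10 mice lay below every saline mouse for each member but Krt74. Mice 3 and 8 of the 4-week group were those inside the saline range. Without mouse 3, Krt25 was at -8.99, Krt71 at -8.68 and Krt72 at -7.80, and without saline mouse 6, Krt72 was at -7.82, all still called.

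Between 4 and 2 weeks of bleomycin limma called none of the 8 members at the adjusted threshold and 0 at an unadjusted p-value below 0.05, where 0.863% of all genes were called lower and 1.49% higher. edgeR called 0 (0 unadjusted) and DESeq2 0 (4 unadjusted). Krt25, Krt26, Krt72 and Krt74 had at most 3 reads in 8 or more of the 10 2-week mice, so their differences are between values near the floor. The differences of the 7 members other than Krt74 ran from -0.00 ± 0.76 for Krt28 to 2.17 ± 1.25 for Krt25 on the log2 scale. With only these 2 groups in the fit, Krt74 was called higher, at 0 to 4 reads a mouse.

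After 6 weeks of recovery limma called none of the 8 members against saline (0 unadjusted), nor did edgeR or DESeq2 (1 unadjusted each), where 1.71% of all genes were called lower and 3.33% higher. The log2 fold changes ran from -2.65 ± 1.44 for Krt25 to -1.10 ± 1.37 for Krt72. All 8 were negative. Without mouse 5, Krt25 was at -0.95, Krt71 at -0.84 and Krt72 at 0.12, and without mouse 4 they were at -3.52, -3.14 and -1.91.

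Against the 4-week bleomycin group, from which recovery started, 7 of the 8 members were called higher after 6 weeks of recovery, where 4.8% of all genes were called higher and 7.14% lower. The log2 differences were 6.10 ± 1.37 for Krt72, 5.90 ± 1.28 for Krt27, 5.75 ± 1.33 for Krt71, 5.69 ± 1.44 for Krt25, 4.82 ± 1.33 for Krt26, 4.66 ± 1.19 for Krt73 and 4.05 ± 0.88 for Krt28. Krt74 was not called (1.46 ± 0.86), and was called by edgeR, by DESeq2 and with only these 2 groups in the fit. For Krt25, 5 of the 6 recovery mice lay above every 4-week bleomycin mouse, and mouse 5 lay among them. Leaving out mouse 5 moved the 6 called members other than Krt28 to between 5.73 (Krt73) and 7.39 (Krt25), and leaving out mouse 4 moved all 7 to between 3.42 (Krt28) and 5.30 (Krt72), with every call kept. Without mouse 3 of the 4-week group, Krt25 was at 6.34, Krt71 at 6.37 and Krt72 at 6.69.

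After 10 weeks of recovery limma called none of the 8 members against saline (0 unadjusted, and likewise with edgeR and DESeq2), where 0.998% of all genes were called lower and 2.05% higher. The log2 fold changes ran from -0.02 ± 1.32 for Krt25 to 0.89 ± 1.26 for Krt72. With SEs of 0.79 to 1.32, a difference of 2-fold in either direction lay within 2 SEs of every estimate. The medians of the 10-week group stood between 181% (Krt73) and 428% (Krt72) of the saline medians, while its mice 4 and 7 lay below all but at most 2 of the saline mice in each of the 8.

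Between 10 and 6 weeks of recovery limma called none of the 8 members (0 unadjusted), edgeR 0 (1 unadjusted) and DESeq2 0 (2 unadjusted), where 0.0704% of all genes were called lower and 0.0176% higher. The log2 differences were all positive, from 1.54 ± 0.92 for Krt28 to 2.63 ± 1.504 for Krt25. Without mouse 5 of the 6-week group the difference of Krt25 was 0.93.

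**Figure D2:**
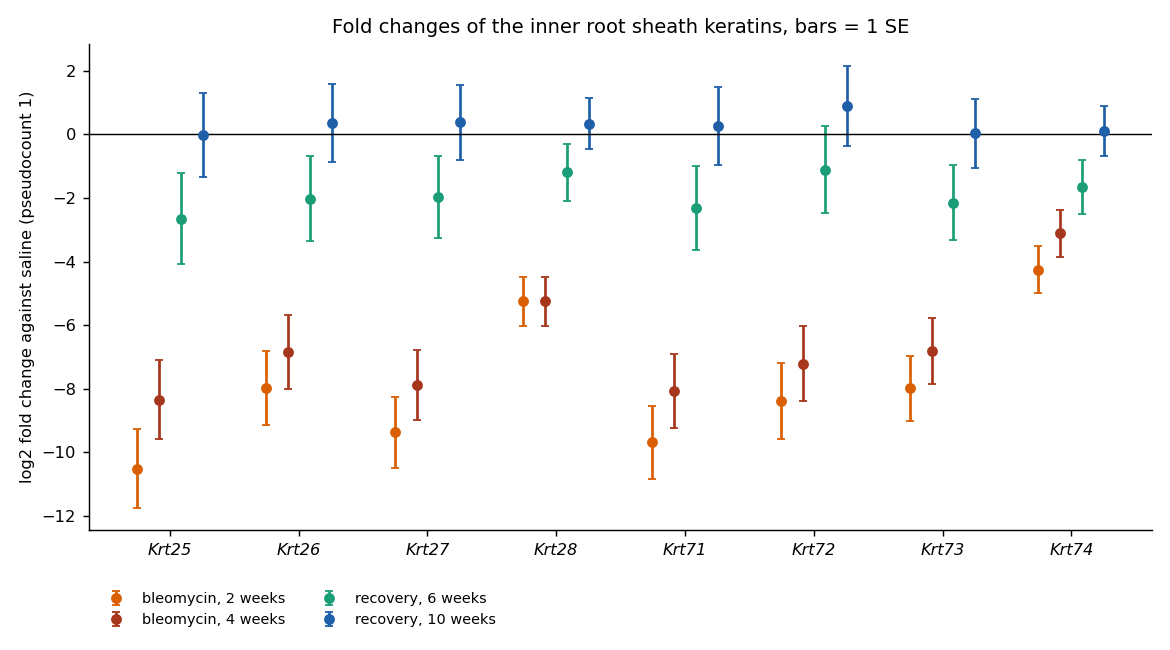
Log2 fold change against saline of each of the 8 keratins (points, with bars of 1 SE) after 2 and 4 weeks of bleomycin and after 6 and 10 weeks of recovery, on the log2(normalized count + 1) scale. The bleomycin points lie between -10.51 and -3.11, and the 10-week recovery points lie between -0.02 and 0.89. All 4 comparisons share the 10 saline mice.

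The highest mouse of a group was mostly the same from member to member, and in the saline and recovery groups so was the lowest. Saline mouse 1 was the highest saline mouse in 8 of 8 members, and mouse 2 the lowest in 5, with mouse 6 lowest in the other 3 (Krt26, Krt72 and Krt74). Mouse 8 was the highest of the 2-week group in 7 of 8 members, and mouse 3 the highest of the 4-week group in 6. Mouse 4 was the highest of the 6-week recovery group in 8 of 8, with mouse 5 lowest in 7. At 10 weeks, mouse 8 was highest in 7 of 8, and mouse 4 lowest in 6. In the bleomycin groups the lowest place was often a tie between mice with no read, as for Krt26 in 6 of the 10 2-week mice. The lowest mouse is therefore not named for these groups.

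Across the 44 mice, Pearson's r between members on the log2 scale ran from 0.82 to 0.99 over the 28 pairs. With the group means taken off it ran from 0.55 to 0.98, and over the 21 pairs without Krt74 from 0.85 upwards. These are a description over mice whose genes were read in the same libraries.

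In saline skin, Krt25 and Krt71 had the highest median level per kb of their type. Their balance was compared in the 26 mice with at least 100 normalized counts of both. These were all 10 saline mice, 1 and 2 of the bleomycin groups, 5 of the 6-week and all 8 of the 10-week recovery mice. Over these mice Krt25 spanned 188-fold and Krt71 161-fold. Their ratio per kb (Krt71 over Krt25) spanned 1.97-fold, from 1.15 to 2.27 with a median of 1.80. Krt27 over Krt25 per kb had a median of 0.938 in saline, 1.17 at 6 weeks and 1.17 at 10 weeks of recovery. Krt25 was thus not the highest type I chain in every group. The summed type I level over the summed type II level per kb spanned 1.54-fold, from 0.922 to 1.42 with a median of 1.13. Over these 26 mice the levels of the 2 chain types thus kept nearly the same proportion. Entry required counts of both Krt25 and Krt71, so a mouse low in only 1 of them would have been left out. The proportion therefore describes only the mice that entered. It does not cover 9 of the 10 2-week and 8 of the 10 4-week mice, which had too few counts. In those groups Krt28 made up most or much of what was left.

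The less abundant members kept less constant proportions. Krt72 over Krt71 per kb spanned 16.4-fold over the 26 mice, from 0.00970 to 0.159, and Krt26 over Krt25 spanned 13.04-fold, from 0.00670 to 0.0870. Both were lowest in saline mouse 6 and highest in mouse 8 of the 10-week recovery group. Krt73 over Krt71 was lowest, at 0.0600, in mouse 7 of the 10-week recovery group. It was 0.274 in saline mouse 6, 0.314 in mouse 8 of the 2-week group and 0.200 in mouse 8 of the 4-week group. The median was 0.0911. Krt28 over Krt25 was 0.471 in saline mouse 6 and 0.360 in mouse 8 of the 2-week group. It was 0.389 in mouse 4 of the 10-week recovery group, against a median of 0.214.

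**Figure D3:**
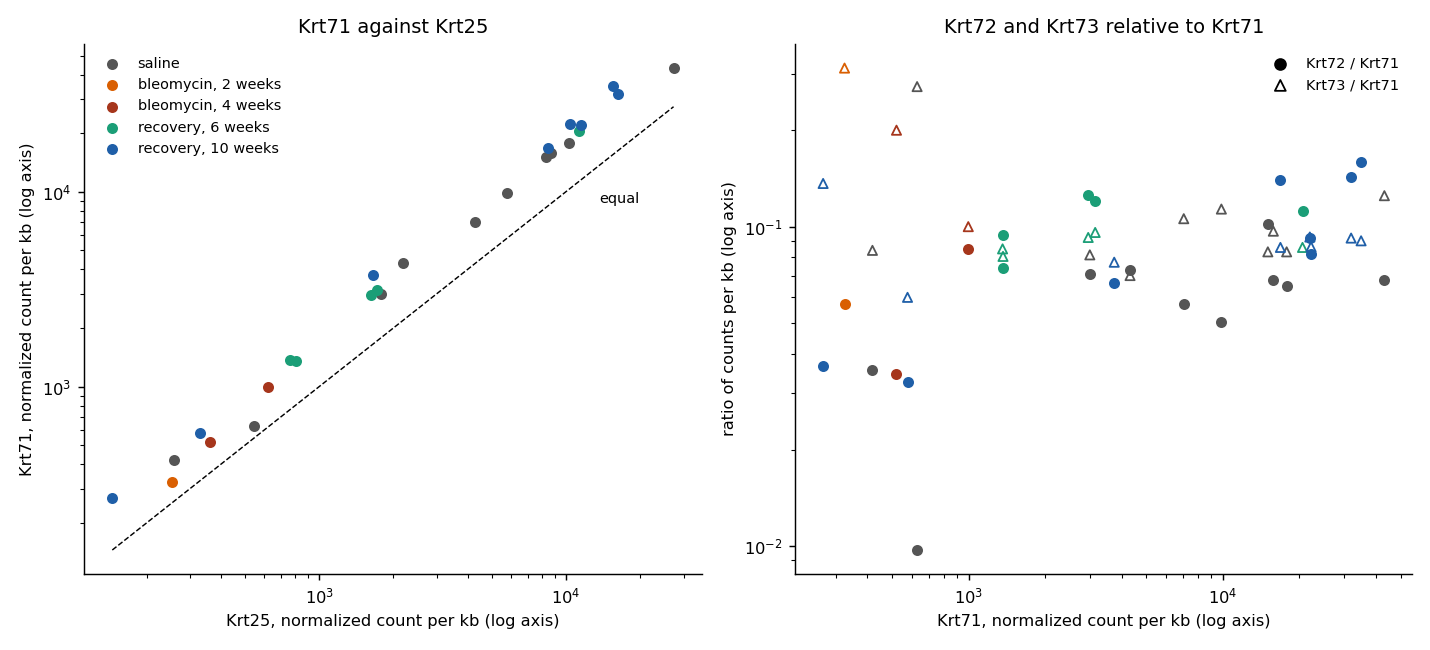
Left, Krt71 against Krt25 in normalized counts per kb (log axes) in the 26 mice with at least 100 normalized counts of both, with a dashed line of equal levels. Right, Krt72 over Krt71 (filled circles) and Krt73 over Krt71 (open triangles) against the Krt71 level (log axes). Krt71 stays 1.15 to 2.27 times Krt25, while Krt72 over Krt71 ranges from 0.00970 to 0.159.

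Genes that regulate, modify or anchor the sheath were read from a list of 11. This list and those below were chosen with earlier results of these data known, so their calls and p-values are not independent evidence. Lower values passed the test in 6 of the 11 after 2 weeks of bleomycin and in 7 after 4 weeks, and none was higher. Of all genes, 7.43% and 7.37% were called lower in these comparisons, and these shares hold for the lists below too. Tchhl1, a relative of trichohyalin, had a median of 796 normalized counts in saline and 3.67 after 2 weeks of bleomycin (log2 fold change -6.82 ± 1.00, limma adjusted p = 4.36e-07). Padi3, a deiminase that acts on trichohyalin, fell from a median of 936 to 4.59 (-6.69 ± 0.96, adjusted p = 2.76e-07). Padi1, another deiminase, fell from 298 to 13.2 (-4.26 ± 0.81, adjusted p = 4.17e-05), and the desmosomal cadherin Dsg4 from 129 to 3.39 (-3.98 ± 0.83, adjusted p = 0.000158).

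In these 4 genes, named because they changed most in this comparison, every 2-week mouse lay below the saline median. The other 2 called were the homeobox factors Dlx3 and Cux1. Not called after 2 weeks were the transcription factor Gata3, the transglutaminases Tgm1 and Tgm3, the lipase Liph and the receptor Lpar6, of which Liph was called after 4 weeks. These genes are also used outside the sheath. Against saline limma called none of the 11 after 6 weeks of recovery (4 unadjusted, edgeR 0, DESeq2 1) or after 10 weeks (2 unadjusted, edgeR 0, DESeq2 0), and 2 were called higher at 6 weeks of recovery than at 4 weeks of bleomycin (Tchhl1 and Padi3), where edgeR and DESeq2 called 5 each.

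Hair shaft keratins, which the sheath encloses, were lower in all 14 with values, of 16 listed, after both 2 and 4 weeks of bleomycin, with median log2 fold changes of -7.23 and -6.27. Krt81 went from a median of 1089 normalized counts to 0.514 (-8.77 ± 1.23, limma adjusted p = 1.76e-07) and Krt35 from 1491 to 1.24 (-8.02 ± 0.96, adjusted p = 4.93e-09). Krt86 (-8.24 ± 1.14) and Krt33a (-8.11 ± 1.13) were alike in size. None of the 14 was called against saline after 6 weeks (2 unadjusted, edgeR 0, DESeq2 0) or 10 weeks (0 unadjusted, edgeR 0, DESeq2 0) of recovery. At 6 weeks of recovery 10 were called higher than at 4 weeks of bleomycin, where 4.8% of all genes were.

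Of 12 regulators of the hair matrix, the dividing cells from which sheath and shaft are made, 10 were lower after 2 weeks and 11 after 4 weeks, with medians of -1.90 and -1.84. Shh, a signal of the growing follicle, had medians of 38.1 in saline and 1.14 after 2 weeks (-3.71 ± 0.62, limma adjusted p = 5.09e-06). The homeobox genes Msx1 (-2.68 ± 0.32), Msx2 (-2.24 ± 0.42) and Hoxc13 (-2.07 ± 0.37) were lower as well. After 6 weeks of recovery 3 of the 12 were still called lower than in saline (Shh, Msx1 and Ovol1; edgeR called 6 and DESeq2 8), and limma called none after 10 weeks (1 unadjusted, edgeR 0, DESeq2 0).

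Of 10 genes of the bulge, the stem cell niche that resting follicles keep, 5 were lower after 2 weeks and 3 after 4 weeks, with medians of -0.57 and -0.20. The stem cell factors Tcf7l1 (-1.26 ± 0.17) and Lhx2 (-0.99 ± 0.13) and the surface marker Cd34 (-0.74 ± 0.12) were among those lower at 2 weeks. Each library is bulk skin, so these values cannot be assigned to bulge cells alone. Of 7 keratins of the companion layer and outer root sheath, which flank the inner sheath, Krt75 was lower after 2 weeks (-1.81 ± 0.34), while Krt6b (6.42 ± 0.64), Krt16 (2.38 ± 0.47) and Krt6a (0.91 ± 0.36) were higher. Krt6b, Krt16 and Krt6a are also known as keratins of wounded epidermis.

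Other cell types moved in the same comparisons, and their part in the values of the inner root sheath keratins was not tested. At 2 weeks, 5 of 6 leukocyte markers were higher and their summed level was 17897 to 34181 normalized counts against 6359 to 16464 in saline. Lower calls were made for 7 of 7 melanocyte, 4 of 5 sebaceous gland, 3 of 6 dermal papilla, 3 of 6 fibroblast, 2 of 5 fat cell, 2 of 6 cell division and 1 of 8 interfollicular epidermis markers. These totals are of the genes tested, and of all genes 7.43% were called lower and 9.3% higher in this comparison. Limma, edgeR and DESeq2 called 0 of 5 skeletal muscle markers (0 unadjusted with each).

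The summed interfollicular epidermis markers ranged from 102073 to 220772 normalized counts after 2 weeks of bleomycin and from 90226 to 249413 in saline. Those of the inner root sheath keratins ranged from 31.8 to 1885 and from 2035 to 214414. The epidermal sums thus overlapped over most of their range. The sheath sums did not overlap at 2 weeks, the comparison by which the genes were chosen, with 1885 against 2035 at the nearest, and they did overlap at 4 weeks, when the highest was 4880. At 4 weeks limma called 0 of the 7 melanocyte markers (0 unadjusted, edgeR 4, DESeq2 4), whereas 6 of 6 cell division markers were called lower and 5 of 6 leukocyte markers higher. Limma, edgeR and DESeq2 also each called 4 of the 8 interfollicular epidermis markers at 4 weeks. The sums of these 8 ranged from 99127 to 145815, with a median of 121481 against 164692 in saline. Each tool called 4 of the 5 sebaceous gland markers as well, whose median sum was 26993 against 56760 in saline. Of all genes, limma called 7.37% lower and 10.5% higher at 4 weeks. Krt36, Krt85 and Mki67, also on these lists, were not analysed here.

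**Figure D4:**
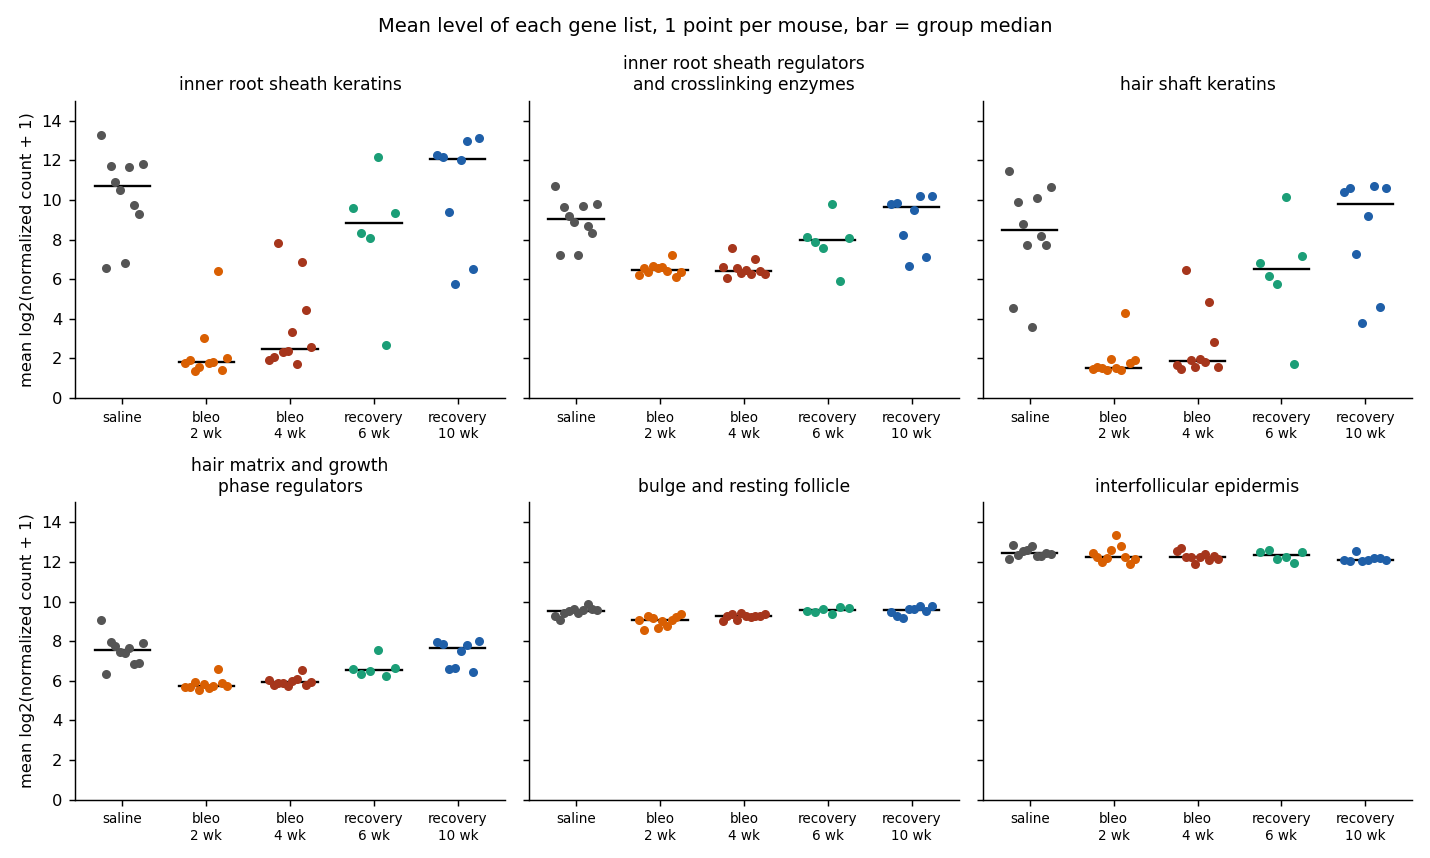
Mean log2(normalized count + 1) of 6 gene lists in each of the 44 mice, by group, with a bar at the group median. The inner root sheath and hair shaft keratins are lowest in the bleomycin groups and again widely spread in recovery, the bulge genes lie somewhat lower at 2 weeks (median log2 fold change -0.57), and the epidermal values overlap between all groups.

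The 10 genes whose levels were most like the mean log2 level of the 8 keratins were sought among the other 17029 genes over the 44 mice. They were Prr9 (r = 0.99), the hair shaft keratins Krt81 (r = 0.99), Krt34 (r = 0.99) and Krt33a (r = 0.99), the keratin-associated protein genes Krtap3-1, Krtap8-1, Krtap7-1 and Krtap1-3 (each r = 0.99), Crnn, a gene of the same fused S100 family as trichohyalin (r = 0.99), and Gm11563 (r = 0.98). With the group means taken off, r for these 10 ran from 0.95 to 0.98, and 113 genes had an r above 0.9 over all mice. The points share libraries and groups, so these values are a description.

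Reads could be split between close relatives. Of the 50-base stretches of the annotated transcripts, 10.9% of those of Krt25 also occur in Krt15, Krt27 or Krt28, 11.1% of those of Krt27 in Krt25 or Krt28, and 0.154% to 2.43% of those of Krt28, Krt71, Krt72, Krt73 and Krt74 in other members. For Krt26 the share was 0.3%, in 527 genes. How the counting treated such reads is not given in the sources used here, so levels near the floor in these genes are uncertain.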

How the data were processed

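RNA from back skin biopsies was made into stranded mRNA libraries and read as paired 50-base reads. Alignment by the authors was to mm10, and the submitters' processing notes name STAR 2.4.0 and DESeq2 1.12.3. The authors deposited read counts per gene scaled by 1 size factor per mouse, a normalized signal. Which counter, strand setting and annotation were used is not given in the sources used here. The deposited signal moves in steps worth 1 read, so whole reads were recovered from it: in every mouse 100.0% of values came out within 0.1 of a whole read. Symbols were matched for 42929 of the 43411 gene IDs (98.9%).

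Genes with a mean above 3 were fitted with limma 3.58.1 (R 4.3.3) on log2(normalized count + 1) with all 5 groups, and called where the fold change passed 1.5 with a Benjamini-Hochberg adjusted p-value under 0.05. edgeR 4.0.16 and DESeq2 1.42.0 were run on the recovered reads (2922 and 2914 genes called at 2 weeks against saline, limma 2851), where an adjusted p-value that DESeq2 left undefined stayed so. Each tool was tested on simulated data. Nothing in the labels says whether mice of a group were handled separately after harvest, so p-values measure the spread between these mice. No 2 libraries of a group were alike within sampling noise. The SEs are from the limma fit and measure the spread between mice. The floor, taken as 3 reads, covers counting error only.

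All members are named; of each other list, up to 4 genes with the largest change among those called at 2 weeks are named with values, or those with the highest mean level where fewer than 2 were called. The members and the 14 gene lists were chosen with earlier results of these data known. The alternatives were pseudocounts of 0.1 and 10, other filters, no fold change threshold, TMM and quantile scaling, only the groups compared, a replicate block, edgeR, DESeq2, 42 mice, plain depth scaling and leaving out each mouse. Exon lengths and positions are from GENCODE vM21, promoters from RefSeq. Python 3.11.15 with pandas 2.3.3, numpy 2.4.6 and matplotlib 3.10.9 was used.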

Additional observations from a re-analysis of the deposited data

Results flagged for a closer look

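Within the 40 sets of 1 keratin in 1 group, a mouse stood far from the rest of its group by Dixon's test on the log2 scale in 9 sets, where chance would give about 1 in 20. In the 2-week bleomycin group this was mouse 8, the highest of 10, with 504 normalized counts of Krt25, 242 of Krt27, 148 of Krt28, 711 of Krt71, 37.0 of Krt72 and 221 of Krt73. In the 6-week recovery group it was mouse 5, the lowest of 6, with 2.05 of Krt25, 9.23 of Krt27 and 14.4 of Krt71. The sets are not independent, since the members move together. Without mouse 8 the 2-week log2 fold change of Krt27 was -9.92, and without mouse 5 that of Krt27 after 6 weeks of recovery was -0.58, against -9.36 and -1.98 with all mice. No member's call against saline changed without either mouse.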

How the results depend on the processing

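The number of members called was unchanged in 388 of 392 refits over 12 alternatives and the 44 fits that left out 1 mouse each. The 4 others were 8 members, not 7, for 6 weeks of recovery against 4 weeks of bleomycin with edgeR, with DESeq2 and with only the groups compared, and 1 member (Krt74), not 0, for 4 against 2 weeks of bleomycin with only the groups compared. Of 616 refitted fold changes of members, 13 moved by more than 1 SD, namely Krt25 under edgeR and DESeq2 and Krt26, Krt72 and Krt74 under other pseudocounts or tools, and 0 changed sign among the called ones. With plain depth scaling in place of size factors, all group medians relative to saline moved by less than 1 SD.

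Without the fold change threshold the genes called rose from 2851 to 6063 (2 weeks against saline), 3053 to 6242 (4 weeks), 859 to 1547 (6 weeks of recovery), 519 to 994 (10 weeks of recovery), 400 to 956 (4 against 2 weeks) and 2035 to 4260 (6 weeks of recovery against 4 weeks of bleomycin). With only the groups compared, 326 genes were called at 10 weeks of recovery against saline. Between 10 and 6 weeks of recovery the 15 genes called became 56 with only those groups, 63 with DESeq2 and 58 with 42 mice, and 6 to 33 when 1 mouse was left out (6 without mouse 3 of the 6-week recovery group, 33 without saline mouse 1, 28 and 24 without mice 2 and 9 of the 2-week group, 30 without mouse 4 of the 10-week recovery group). At 6 weeks of recovery against saline the 859 genes became 504 to 1039 when 1 mouse was left out, lowest without mouse 5 and highest without mouse 4 of the recovery group. The causes were not tested.

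Same-numbered mice of different groups did not deviate together: over 78 pairs r ran from -0.69 to 0.38 with a median of -0.00. With the replicate block, 2847 genes were called at 2 weeks against saline and 1129 at 6 weeks of recovery, and the members called were 8 and 0 as without it. Depth limits Krt26, Krt72 and Krt74 most, which had 0 reads in 6 or 7 of the 10 2-week mice.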
